A study of Mus musculus with 21 samples.

Results

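The spread between tumours grown from the same cells was examined in the 15 tumour arrays among the 21 arrays of the series. These are 5 Py117 tumours, 5 mixed tumours (labelled Py5050) and 5 Py8119 tumours of mouse mammary carcinoma. For each gene the standard deviation (SD) of its log2 signal over the 5 tumours of a group was taken and compared between the groups. All 11183 genes with a mean log2 signal of at least 6 over the 15 tumour arrays entered this comparison, out of 22180 genes measured. Py117 and Py8119 are clonal lines from MMTV-PyMT mice, animals in which a mammary tumour virus promoter drives the polyomavirus middle T oncogene in mammary epithelium, so each unmixed group rests on a single clone. Each tumour was started from 1000000 cells placed with matrigel in mammary fat pad 4, as Py117 cells, Py8119 cells or both lines at 1:1. The tumours received no treatment and were collected on the day when radiation would usually have been given. The series calls Py117 tumours sensitive and Py8119 tumours resistant. Host strain, sex and age are not given in the sources used here. The remaining 6 arrays are untreated cultures of the lines, 3 each.

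A tumour in the mammary fat pad is a mixture of carcinoma cells with fat cells, fibroblasts, vessels and immune cells of the host. RNA from a piece of such a tumour carries the genes of each of these cells in proportion to their number and to the RNA each holds. Fewer cells of a type and less RNA per cell cannot be told apart in these arrays. Genes of one cell type therefore tend to be high or low in the same tumours. Interferon target genes, which many cell types switch on in response to a common signal, can do the same without a change in cell number.

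The line labels were checked first on genes that separated the lines in culture. The mean of 313 genes that were higher in Py117 culture was 8.12 to 8.35 in Py117 tumours, 6.64 to 7.0 in mixed tumours and 6.16 to 6.23 in Py8119 tumours, and the groups did not overlap. The mean of 119 genes that were higher in Py8119 culture was 6.55 to 6.78, 8.19 to 8.29 and 8.21 to 8.31 in the same order. Mixed and Py8119 tumours overlapped on that list. Epcam, an epithelial adhesion molecule, was 10.06 to 10.73, 7.24 to 8.39 and 4.38 to 5.51 in the same order. Vim, the mesenchymal filament vimentin, was 11.73 to 12.15, 12.88 to 13.08 and 13.06 to 13.13. Array medians over all probe sets lay between 5.24 and 5.53. Within groups, arrays correlated across genes with r of 0.928 to 0.973 (Py117), 0.971 to 0.991 (mixed) and 0.975 to 0.991 (Py8119). Arrays that stood apart were Py117 tumour 3, mixed tumour 3 and, for small nucleolar RNA, Py8119 tumour 1. The labels describe the arrays of a group as biological replicates but do not say how the animals were housed or handled, so p-values measure the spread between these samples.

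Py117 tumours differed from each other more than mixed or Py8119 tumours did. The median gene had an SD of 0.202 in Py117 tumours, 0.134 in mixed tumours and 0.134 in Py8119 tumours. In the cultures, with 3 arrays each, it was 0.110 for Py117 and 0.0990 for Py8119. An SD of at least 0.5 was found for 629 genes (5.62%) in Py117 tumours, against 135 (1.21%) in mixed tumours and 135 (1.21%) in Py8119 tumours. The SD was larger in Py117 than in mixed tumours for 8411 genes (75.2%), with a median ratio of 1.5, and larger than in Py8119 tumours for 8316 (74.4%), with a median ratio of 1.51. Mixed tumours had the larger SD against Py8119 tumours for 5578 genes (49.9%), with a median ratio of 0.998. These comparisons share groups. Genes are not independent replicates, so these counts carry no p-value. Py117 tumours had the largest median SD at every signal level, while mixed and Py8119 tumours lay close together and changed order. Among 2939 genes with a mean between 6 and 7 the median SD was 0.227 in Py117, 0.153 in mixed and 0.151 in Py8119 tumours, and among 833 genes at 10 or above it was 0.149, 0.114 and 0.116. Without Py117 tumour 3 the median SD of Py117 tumours was 0.162, and without mixed tumour 3 that of mixed tumours was 0.118.

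**Figure D1:**
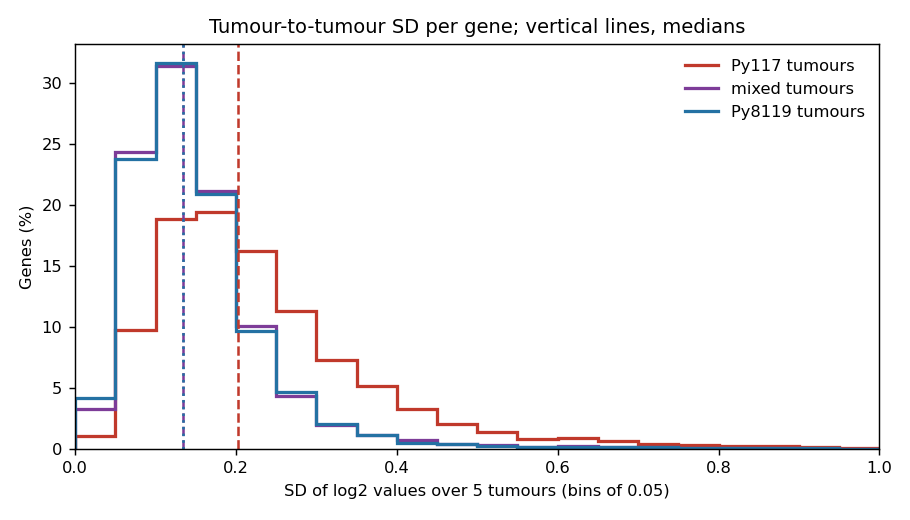
Distribution of the tumour-to-tumour SD over 11183 genes. The x axis is the SD of log2 values over the 5 tumours of a group in bins of 0.05, the y axis the percentage of genes, and dashed lines mark the medians of 0.202 (Py117), 0.134 (mixed) and 0.134 (Py8119). The mixed and Py8119 curves lie on each other and the Py117 curve is shifted to larger SD.

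With the tumour as the unit, the distance of each array from its group was the median over genes of the absolute difference from the mean of the other 4 arrays. It was 0.158, 0.114, 0.256, 0.182 and 0.136 in Py117 tumours 1 to 5. It was 0.110, 0.0841, 0.146, 0.0985 and 0.126 in mixed tumours and 0.131, 0.0855, 0.0876, 0.137 and 0.114 in Py8119 tumours. Py117 tumour 3 was the most distant of all, and the other Py117 tumours overlapped the range of the other groups or lay just above it. Over the genes used, the median level of Py117 tumour 3 was 7.64, against 7.79 to 7.91 in the other Py117 tumours. It was 7.84 to 7.95 in mixed and 7.82 to 7.89 in Py8119 tumours. Such a shift of the whole array adds to its distance and to its share of squared deviations. How much it adds in this tumour was not tested, while group distances after quantile normalization are given with the other settings. The mean distance was 0.169 ± 0.0546 (SD, n = 5) for Py117, 0.113 ± 0.0241 for mixed and 0.111 ± 0.0239 for Py8119 tumours. A two-sided exact permutation test gave p = 0.0476 for Py117 against mixed, 0.0556 for Py117 against Py8119 and 0.929 for mixed against Py8119. After Benjamini-Hochberg adjustment over the 3 pairs these were 0.0833, 0.0833 and 0.929 (exact permutation tests), so none passed the threshold of 0.05. The smallest p this design allows is 0.00794, and distances within a group share arrays. With both tumours numbered 3 left out, an alternative chosen after seeing the data, the adjusted exact p for both Py117 comparisons was 0.0476. It was also 0.0476 without Py117 tumour 2 and after quantile normalization of all probe sets.

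**Figure D2:**
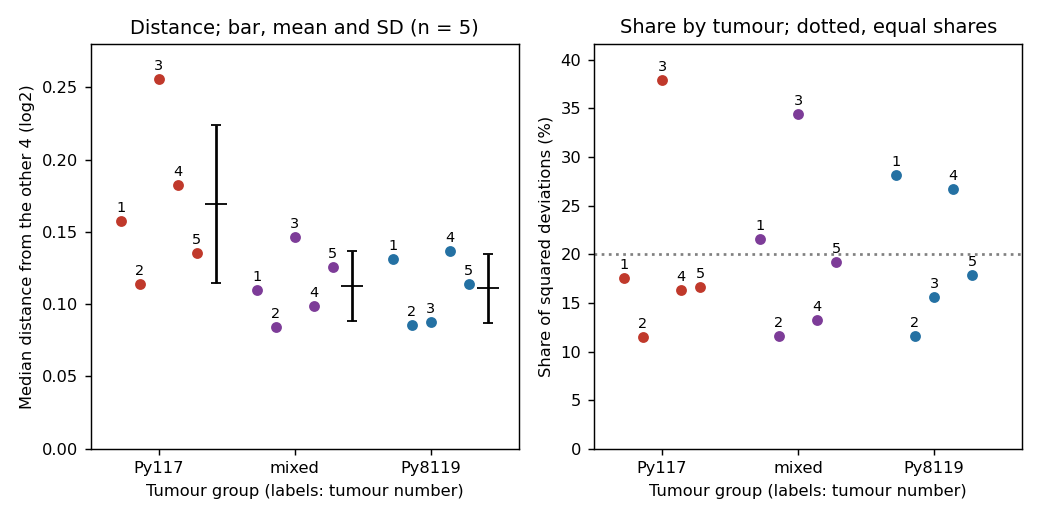
Left, distance of each tumour from the other 4 of its group (median over genes of the absolute log2 difference), with the mean and SD of 5 tumours as bars. Right, percentage of the group's summed squared deviations that each tumour gives, with a dotted line at equal shares. Numbers name the tumours; tumour 3 is farthest in the Py117 group (0.256, 37.9%) and in the mixed group (0.146, 34.4%).

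In each group 1 or 2 tumours gave much of the spread. Summed over genes, tumour 3 gave 37.9% of the squared deviations from the mean among Py117 tumours and 34.4% among mixed tumours. Among Py8119 tumours, tumours 1 and 4 gave 28.2% and 26.7%. Without Py8119 tumour 4 the share of tumour 1 was 37.7%. The first principal component held 56.0% of the variance in the Py117 group, 49.8% in the mixed group and 43.0% in the Py8119 group. Of the 135 genes with an SD of at least 0.5 in mixed tumours, 100 (74.1%) were highest in tumour 3, beside 17.7% of all genes. Of the 629 such genes in Py117 tumours, 196 (31.2%) were highest in tumour 3, beside 14.9% of all genes. Another 255 (40.5%) were lowest there, which was below the share of 49.0% over all genes.

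Genes whose spread differed between groups were found with limma, applied to each array's absolute deviation from its group mean in 1 fit of the 15 tumour arrays. Differences are given as a mean absolute deviation on the log2 scale with its standard error (SE), and a gene was called where p adjusted by Benjamini-Hochberg was under 0.05. Against mixed tumours, 111 genes (0.993% of those tested) were called, all wider in Py117 tumours. Against Py8119 tumours, 168 genes (1.5%) were called, of which 161 (1.44%) were wider in Py117 and 7 (0.0626%) in Py8119 tumours. Both comparisons use the same Py117 tumours, so their calls are not independent. Between mixed and Py8119 tumours limma called 0 genes (0%), with 503 at an unadjusted p under 0.05, of which 253 were wider in mixed and 250 in Py8119 tumours. The other forms of the test also called 0 there, except that 1 gene passed with a replicate block, 1 without Py8119 tumour 1, 3 or 4, and 2 without mixed tumour 1.

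Many of the called genes shared a split of the 5 Py117 tumours. Tumours 2 and 3 were the lowest pair in 57 of the 111 genes (51.4%) and the highest pair in 38 (34.2%), against 26.6% and 10.2% of all 11183 genes. The test itself favours such genes: when 2 tumours stand against 3, the absolute deviations are nearly equal and their error is small. A single outlying tumour makes the deviations unequal and the error large. The excess over all genes therefore cannot be read as a result. Some called genes entered through the group where they were high: with a mean of at least 6 required in each group, 89 and 137 genes were called, and 14 of 53 calls of named or listed genes were not tested while the other 39 remained. With deviations from the group median in place of the mean no gene was called in any comparison. Without Py117 tumour 2 or 3 the counts were 85 and 84 against mixed tumours, and 97 and 115 against Py8119 tumours. They were 309 to 337 and 346 to 492 without Py117 tumour 1, 4 or 5. Without single mixed tumours the count against mixed tumours was 41 to 78, and without single Py8119 tumours the count against Py8119 tumours was 47 to 95.

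Among Py117 tumours, the adipocyte list had the widest spread of the lists examined, whereas in mixed and Py8119 tumours others were wider. The mean log2 level of 19 adipocyte genes was 8.22, 6.31, 6.37, 7.53 and 8.24 in Py117 tumours 1 to 5, a range of 3.82-fold with an SD of 0.951. Tumours 1 and 5 were high, tumour 4 between, and tumours 2 and 3 low: each of the 19 genes was highest in tumour 1 or 5, and 18 were lowest in tumour 2 or 3. In mixed tumours the list was 6.18, 5.97, 5.85, 5.89 and 5.99 (SD 0.130, and 0.0657 without tumour 1). In Py8119 tumours it was 5.88, 5.66, 5.68, 6.22 and 5.74 (SD 0.230, and 0.100 without tumour 4, which was highest for 13 of 19 genes). The lower Py117 tumours thus lay just above the other groups, and the upper 3 far above them. Over the list, the SD was larger in Py117 than in mixed tumours for 17 of 19 genes. Among the 11 members with a mean of at least 6 the median ratio was 3.22, beside 1.5 over all genes. Of 11 members with a mean of at least 6, limma called 5 wider in Py117 than in mixed tumours (Car3, Cd36, Cidec, Lpl and Retn), and the same 5 with Fabp4 against Py8119 tumours, beside 0.993% and 1.44% of all genes. Cidec, as well as Gpd1 and Dgat2 of the next list, had a group mean below 6 in another group and passed the signal minimum through the Py117 tumours. In the fit of all genes with no minimum these 3 genes were called too (limma adjusted p 0.00173 to 0.0278).

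Car3, a carbonic anhydrase abundant in fat cells, was 11.77, 6.39, 5.39, 10.94 and 11.81 in Py117 tumours, where tumour 3 lay close to background (95% of olfactory and vomeronasal receptor genes, described with the muscle genes, were at or below 5.34). It was 8.08, 7.25, 6.27, 6.67 and 7.15 in mixed tumours and 7.16, 6.37, 6.54, 8.97 and 6.62 in Py8119 tumours. Py117 tumours 1, 4 and 5 were above every other tumour, and tumour 3 was below every other. Its mean absolute deviation was larger in Py117 tumours by 2.46 (SE 0.394, limma adjusted p = 0.00873) against mixed and by 2.18 (SE 0.394, adjusted p = 0.0159) against Py8119 tumours. Cidec, a lipid droplet protein, was 8.54, 5.52, 5.42, 7.62 and 8.92 in Py117 tumours against 5.64 to 5.90 in mixed tumours, with a difference of 1.47 (SE 0.214, limma adjusted p = 0.0051). Retn, the fat hormone resistin, was 9.37, 5.79, 6.19, 8.31 and 8.91 against 5.91 to 6.58 (difference 1.34, SE 0.22, limma adjusted p = 0.00921). The fatty acid carrier Fabp4 was 11.29, 7.66, 7.35, 10.33 and 11.53 in Py117 tumours and passed against Py8119 tumours (limma adjusted p = 0.0347) but not against mixed tumours (0.0533), where tumour 1 stood at 9.09 and the others at 7.21 to 7.71. Adipoq, the fat cell hormone adiponectin, was 6.85, 4.14, 4.66, 5.85 and 7.45 in Py117 tumours. It was not tested because its mean was under 6. Without Py117 tumour 2 or 3 none of these calls remained for Car3, Cidec, Retn and Fabp4 (limma adjusted p 0.0978 to 0.302). Against Py8119 tumours Cd36, Cidec, Fabp4, Lpl and Retn also lost the call without 1 or more single Py8119 tumours (0.0516 to 0.1), and against mixed tumours Cd36 and Lpl did so without single mixed tumours (0.0528 to 0.101).

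Genes of fat synthesis varied along the same tumours but by less. The mean of 15 lipogenesis genes was 8.70, 7.97, 7.85, 8.30 and 8.71 in Py117 tumours (SD 0.398), against 7.63 to 7.77 in mixed (SD 0.0549) and 7.54 to 7.72 in Py8119 tumours (SD 0.0782). Of the 12 tested, 3 were called against mixed tumours (Dgat2, Gpd1 and Scd1) and 2 against Py8119 tumours (Dgat2 and Gpd1), beside 0.993% and 1.44% of all genes. Gpd1, which supplies glycerol phosphate for triglyceride, was 7.84, 5.96, 5.94, 6.36 and 7.94 in Py117 tumours, 5.54 to 5.88 in mixed and 5.47 to 5.60 in Py8119 tumours, so every Py117 tumour was above both other groups. Its deviation was larger in Py117 tumours by 0.845 (SE 0.101, limma adjusted p = 0.00218) against mixed tumours, where the call ended without Py117 tumour 1 (0.0548) or 5 (0.0604). Against Py8119 tumours the difference was 0.914 (SE 0.101, limma adjusted p = 0.00118), and no single tumour left out ended that call. Dgat2 lost its calls without Py117 tumour 2 or 3 (0.0536 to 0.0878), and that against Py8119 tumours without Py8119 tumour 1, 2, 3 or 5 (0.0517 to 0.0661), and Scd1 without mixed tumour 2, 4 or 5 (0.0584 to 0.0593). Thrsp, a lipogenic regulator that milk-producing epithelium also makes, varied far less: it was 10.85, 10.50, 10.44, 10.69 and 10.55 in Py117 tumours, with an SD of 0.165. It too was highest in tumour 1 and lowest in tumours 2 and 3. The 8 brown fat genes had low list means of 4.86 to 5.79 and none reached a mean of 6 over all 15 tumours, but Cox8b, a respiratory chain subunit of brown fat and muscle, was 7.83 and 6.80 in Py117 tumours 1 and 5 and 5.13 to 5.51 in the other Py117 tumours.

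Mast cell genes followed the fat genes in Py117 tumours. The mean of 13 mast cell and eosinophil genes was 5.94, 4.80, 4.66, 5.56 and 6.02 (SD 0.634), again with tumours 2 and 3 low. In mixed tumours it was 5.13, 5.28, 5.44, 5.55 and 5.11 (SD 0.192), and in Py8119 tumours 4.71 to 4.97 (SD 0.114). Only 3 of the 13 members had a mean of at least 6 and were tested, and the list means lay around the background level of 5.34. All 3, Cpa3, Kit and Tpsb2, were called wider in Py117 than in mixed tumours, and Kit and Tpsb2 against Py8119 tumours, beside 0.993% and 1.44% of all genes. Tpsb2 was among the genes not tested when each group had to reach a mean of 6. With no minimum its calls remained (limma adjusted p = 0.0254 and 0.0417). Cpa3, the mast cell carboxypeptidase, was 9.71, 6.79, 5.46, 9.17 and 8.80 in Py117 tumours and 7.91 to 8.94 in mixed tumours (difference 1.36, SE 0.268, limma adjusted p = 0.0223). Py117 tumours thus lay on both sides of the mixed range. Kit, the stem cell factor receptor, which mast cells need but epithelial cells can also carry, was 8.51, 7.21, 6.88, 8.21 and 8.50 in Py117 tumours against 6.69 to 7.18 in mixed (limma adjusted p = 0.0138) and 6.10 to 6.62 in Py8119 tumours (0.0147). The mast cell protease Mcpt2 was 8.88, 5.81, 4.26, 7.36 and 8.41 in Py117 tumours, with tumour 3 below that background level of 5.34, but did not pass (limma adjusted p = 0.168 against mixed and 0.265 against Py8119 tumours). Without Py117 tumour 2 or 3, Cpa3, Kit and Tpsb2 lost their calls (limma adjusted p 0.102 to 0.357). Calls of Cpa3 and Tpsb2 were also lost without several single mixed or Py8119 tumours (0.0518 to 0.0956).

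**Figure D3:**
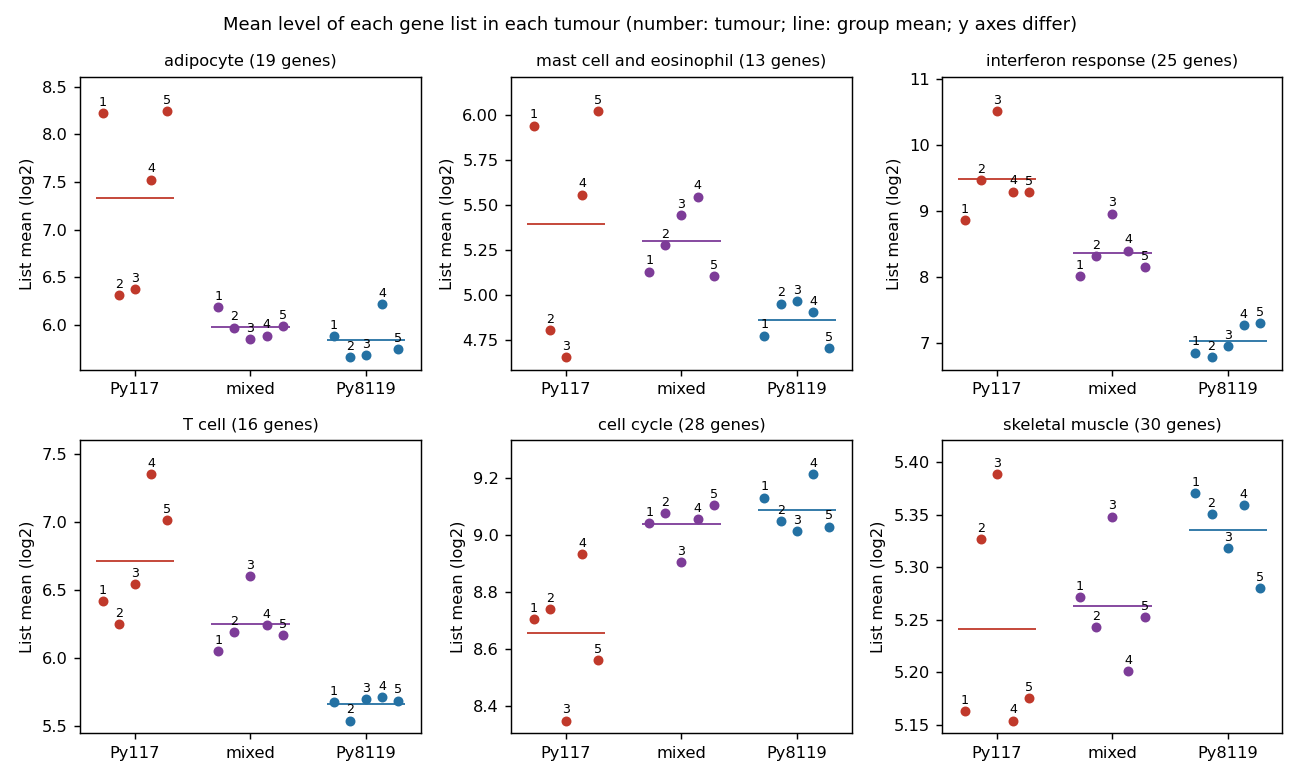
Mean log2 level of 6 gene lists in each of the 15 tumours; numbers name the tumours, horizontal lines are group means, and the y axes differ between panels. In Py117 tumours the adipocyte and mast cell lists are low in tumours 2 and 3, the interferon list is high in tumour 3, the T cell list is high in tumour 4 and the cell cycle list is low in tumour 3; the skeletal muscle axis spans less than 0.3.

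Interferon target genes followed another order, with tumour 3 high in both Py117 and mixed tumours. The mean of 25 such genes was 8.86, 9.46, 10.51, 9.29 and 9.28 in Py117 tumours and 8.01, 8.32, 8.96, 8.40 and 8.15 in mixed tumours. Tumour 3 was highest for 25 of 25 genes among Py117 tumours and for 24 of 25 among mixed tumours, and tumour 1 was lowest for 22 and 17. In Py8119 tumours the list was 6.86, 6.78, 6.95, 7.27 and 7.30, below every tumour of the other groups. Tumour 5 was highest for 14 and tumour 4 for 8 of the 25 genes there. The SD of the list was 0.615 in Py117 tumours (0.256 without tumour 3), 0.362 in mixed tumours (0.171 without tumour 3) and 0.238 in Py8119 tumours. None of the 23 members tested was called in any comparison of spread, where 1 outlying tumour makes a call less likely. Over all genes 0.993% and 1.44% were called wider in Py117 tumours. The replicate numbers do not link a Py117 tumour to the mixed tumour of the same number in the labels.

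Interferons act through factor complexes that bind a paired GAAA element in the promoters of their targets. The letters GAAANNGAAA, on either strand, were searched in the 250 bases before each gene's start in RefSeq promoters of GRCm38.p6. They were present in 11 of 22 interferon list genes with a promoter entry (50%) and in 936 of 27025 genes (3.46%). The 22 were taken from all 30 entries of the list, including those not measured here. A match is a description and not a binding site, and no match says only that these letters are not in that window. The sequences around the matches in 4 genes are shown to place the element against genes whose level was highest in tumour 3. The capitals mark each match, which reads TTTCNNTTTC where it lies on the other strand.
Cxcl10, chr5:92349063-92349132, minus strand: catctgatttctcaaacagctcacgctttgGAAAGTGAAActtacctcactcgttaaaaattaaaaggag
Rsad2, chr12:26456533-26456602, minus strand: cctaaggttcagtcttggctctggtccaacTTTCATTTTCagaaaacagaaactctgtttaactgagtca
Igtp, chr11:58199492-58199555, plus strand: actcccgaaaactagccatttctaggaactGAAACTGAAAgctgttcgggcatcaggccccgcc
Ifit1, chr19:34640755-34640843, plus strand: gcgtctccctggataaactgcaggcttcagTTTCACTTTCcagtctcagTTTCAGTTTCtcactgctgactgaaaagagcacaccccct

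Cxcl10, a chemokine that attracts activated T cells, was 8.19, 9.38, 11.34, 9.45 and 9.28 in Py117 tumours and 9.08, 9.61, 10.80, 9.85 and 9.35 in mixed tumours. In Py8119 tumours it was 7.31 to 7.74, below all others. The spread of Cxcl10 was not called (limma adjusted p = 0.662 for Py117 against mixed and 0.269 against Py8119 tumours). Rsad2, which encodes the antiviral enzyme viperin, was 7.93, 8.90, 10.39, 8.21 and 8.55 in Py117 tumours, with tumour 3 highest, and 6.73 to 7.32 in mixed tumours. Igtp, an interferon-induced GTPase, was 9.64, 10.42, 11.81, 10.55 and 10.26 in Py117 and 8.86, 9.62, 10.82, 9.62 and 9.30 in mixed tumours. Ifit1, an antiviral RNA-binding protein, was 9.53, 10.42, 11.14, 9.68 and 9.96 in Py117 tumours and 8.07, 8.10, 8.92, 7.98 and 7.95 in mixed tumours. In all 4 genes tumour 3 was the highest of both groups.

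Antigen presentation and lymphocyte genes were spread in part along the same tumours. The mean of 12 MHC class I genes, which load and carry peptides for CD8 T cells, was 9.38, 9.52, 10.63, 10.01 and 9.82 in Py117 tumours and 9.15, 9.53, 10.03, 9.44 and 9.33 in mixed tumours, with tumour 3 highest for 10 and 12 of the 12 genes. Several of these genes are near-identical copies that probes may not separate. T cell genes instead peaked in Py117 tumour 4: the mean of 16 genes was 6.41, 6.25, 6.54, 7.35 and 7.01, and tumour 4 was highest for 13. In mixed tumours it was 6.05, 6.19, 6.60, 6.24 and 6.17, with tumour 3 highest for 13 (SD 0.208, and 0.0818 without tumour 3). In Py8119 tumours it was 5.54 to 5.71 (SD 0.0694, and 0.0151 without tumour 2). Cd3e, a chain of the T cell receptor complex, was 8.27, 7.56, 7.63, 9.28 and 8.92 in Py117 tumours and 6.50 to 6.96 in Py8119 tumours (limma adjusted p = 0.0688). Lat, an adaptor of T cell receptor signalling, was called against Py8119 tumours (6.88, 6.83, 7.55, 7.75 and 7.57 against 6.46 to 6.73, limma adjusted p = 0.0162) and lost the call without Py117 tumour 1 (0.117) or 2 (0.138) or Py8119 tumour 5 (0.0517). This was 1 of 10 T cell genes tested, beside 1.44% of all genes, and against mixed tumours 0 were called, beside 0.993%. The 17 cytotoxic and natural killer genes averaged 6.44, 6.42, 7.29, 7.22 and 6.78 in Py117 tumours and 6.66, 6.64, 7.42, 6.84 and 6.66 in mixed tumours.

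The mean of 23 macrophage and monocyte genes was 8.42, 8.71, 8.91, 8.48 and 8.94 in Py117 tumours (SD 0.239), 9.11, 9.26, 9.60, 9.16 and 9.21 in mixed tumours (SD 0.196, and 0.0636 without tumour 3) and 9.02 to 9.21 in Py8119 tumours (SD 0.0752). None of the 22 members tested was called, beside 0.993% and 1.44% of all genes in the Py117 comparisons. Retnla, a secreted protein of macrophages exposed to interleukin 4, was 10.23, 10.10, 9.51, 7.58 and 12.01 in Py117 tumours. It was 5.84, 7.62, 8.76, 6.12 and 4.49 in mixed and 5.16, 3.94, 3.86, 6.27 and 5.74 in Py8119 tumours, so it varied in every group. Chil3, a chitinase-like protein of similar macrophages, was highest in Py117 tumour 5 (9.01, against 5.20 to 7.55 in the others) and in mixed tumours 2 and 3 (9.32 and 8.83, against 6.72 to 7.17). Arg1, arginase of macrophages, was 9.41 in Py117 tumour 5 and 5.63 to 6.83 in the other Py117 tumours. In mixed tumours it was 9.39 to 10.82 and in Py8119 tumours 9.61 to 10.17, so Py117 tumour 5 reached the lower end of the mixed range and lay below the Py8119 range. The chemokine Ccl24, which attracts eosinophils, was 8.97 in Py117 tumour 5 against 5.09 to 5.81 in the others, and 7.17 and 8.12 in mixed tumours 2 and 3 against 5.10 to 5.45.

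Rnase2a, a ribonuclease of eosinophils and macrophages from a family of similar copies, had the largest SD of all genes in Py117 (3.32) and mixed tumours (1.78). In Py8119 tumours its SD was 1.33, below that of the small nucleolar RNA Snora15 (1.49). It was 9.02, 4.79, 4.15, 3.31 and 10.88 in Py117 tumours, with tumours 2, 3 and 4 below the background level of 5.34, and 5.98, 8.74, 9.06, 5.83 and 5.28 in mixed tumours. In Py8119 tumours it was 3.87, 4.31, 4.35, 6.53 and 6.61, with tumours 1, 2 and 3 below that level, as was mixed tumour 5. Its spread was called against Py8119 tumours (difference 1.86, SE 0.424, limma adjusted p = 0.0406) and not against mixed tumours (0.115). Rnase2a did not have a mean of at least 6 in each group and passed the signal minimum through the groups where it was higher. In the fit with no minimum the call against Py8119 tumours remained (limma adjusted p = 0.0477). The call was lost without Py117 tumour 1 (limma adjusted p = 0.159) or 5 (0.337) and without any single Py8119 tumour (0.0628 to 0.104) or mixed tumour 2 (0.086) or 3 (0.0643). Of the 100 genes with the largest SD in a group, 34 were shared by Py117 and mixed, 21 by Py117 and Py8119 and 32 by mixed and Py8119 tumours. In all 3 lists were 13 genes, among them Rnase2a, Retnla, Chil3, Car3, Fabp4, Mcpt2, C1qtnf3 and the macrophage elastase Mmp12.

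**Figure D4:**
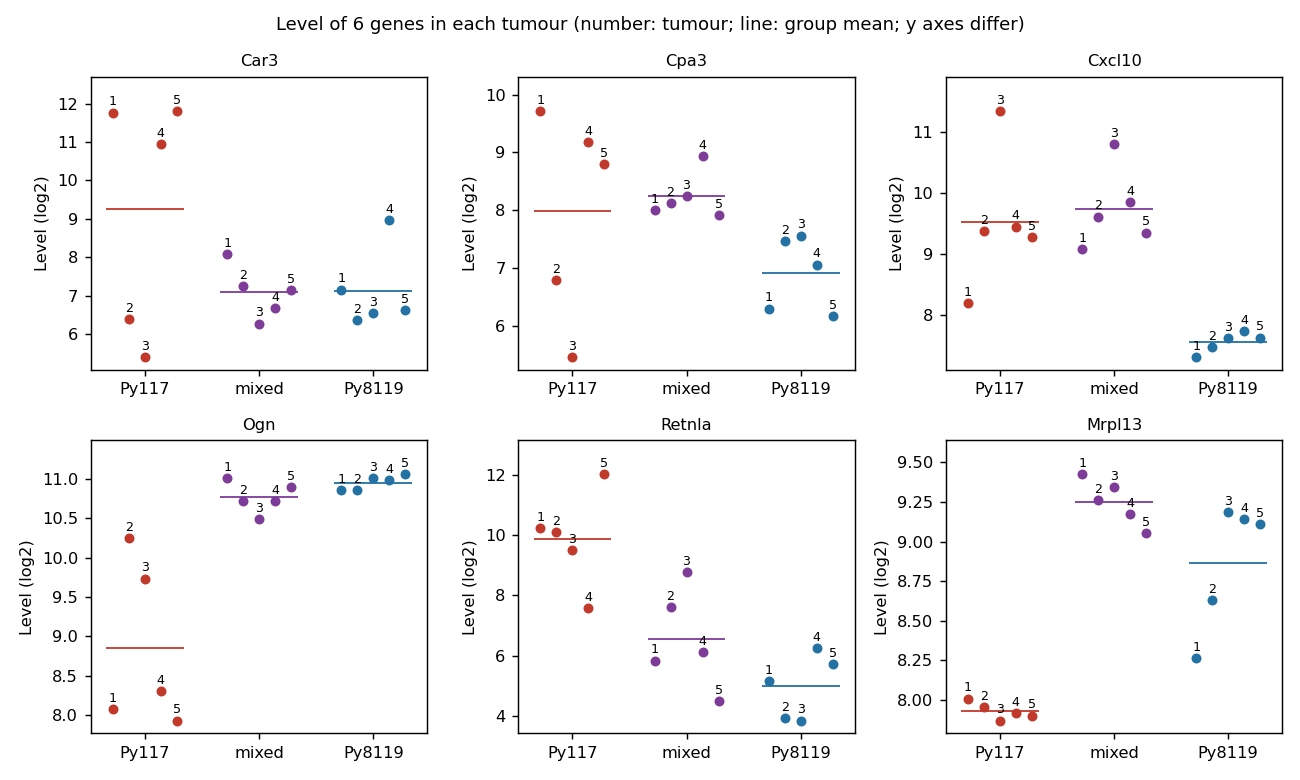
Log2 level of 6 genes in each of the 15 tumours; numbers name the tumours, horizontal lines are group means, and the y axes differ between panels. Car3 and Cpa3 split Py117 tumours 1, 4 and 5 from 2 and 3, Ogn splits them the other way, Cxcl10 is highest in tumour 3 of both Py117 and mixed groups, Retnla varies in all groups, and Mrpl13 is close together in Py117 tumours but low in Py8119 tumours 1 and 2.

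Matrix genes ran opposite to fat genes in Py117 tumours. The mean of 21 fibroblast and matrix genes was 8.79, 9.72, 9.43, 8.87 and 9.03, so that tumours 2 and 3 were the highest where the fat and mast cell lists were lowest. It was 7.92, 8.46, 8.43, 8.09 and 8.01 in mixed tumours and 7.79, 7.76, 7.92, 8.47 and 8.12 in Py8119 tumours, where tumour 4 was highest for 16 genes (SD 0.293, and 0.165 without tumour 4). Of 20 members tested, limma called Mmp2 and Ogn wider in Py117 than in mixed tumours, and Mmp2, Ogn and Pi16 against Py8119 tumours, beside 0.993% and 1.44% of all genes. Ogn, the matrix proteoglycan osteoglycin, was 8.07, 10.25, 9.73, 8.30 and 7.93 in Py117 tumours, 10.49 to 11.01 in mixed and 10.86 to 11.06 in Py8119 tumours. All Py117 tumours were below the other groups, and its deviation was larger by 0.845 (SE 0.119, limma adjusted p = 0.00414) and 0.926 (SE 0.119, 0.00304). Mmp2, a gelatinase, was 9.78, 11.16, 11.14, 9.86 and 9.76 against 9.54 to 9.98 in mixed tumours (limma adjusted p = 0.00534). Without Py117 tumour 2 or 3 the calls of Ogn, Mmp2 and Pi16 were lost (0.0576 to 0.257), that of Pi16 also without Py8119 tumour 1, 2 or 5 (0.0858 to 0.0992). Col1a1, a chain of type I collagen, was 10.70, 11.90, 12.01, 11.34 and 11.38 in Py117 tumours, 9.58 to 10.66 in mixed and 9.44 to 10.87 in Py8119 tumours, with similar SD of 0.523, 0.482 and 0.59.

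C1qtnf3 and Thbs2, both among the 10 genes with the largest SD in mixed tumours, divided tumours 2, 3 and 4 from 1 and 5. C1qtnf3, a secreted relative of adiponectin, was 6.64, 8.60, 9.22, 8.66 and 6.91 there, and the matrix protein Thbs2 was 6.91, 9.17, 9.56, 8.15 and 7.35. In Py8119 tumours both were highest in tumour 4 (8.56 and 9.09) and next in tumour 5 (8.21 and 8.08). Serpina3n, a protease inhibitor of acute inflammation, was 9.21 in Py8119 tumour 4 and 6.91 to 7.25 in the others. Acta2, the actin of smooth muscle and contractile fibroblasts, was 8.17, 7.94, 7.91, 9.38 and 9.07 in Py8119 tumours. Tumour 4 of this group was thus high for matrix, contractile and fat genes, but not for these alone. It was the highest of the group for 34.1% of all 11183 genes, for 16 of 17 DNA repair genes and for 10 of 12 MHC class I genes.

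Genes of hypoxia and glycolysis were highest in tumour 3 of the Py117 and mixed groups. The mean of 17 hypoxia and glycolysis genes was 8.44, 8.92, 9.31, 8.66 and 8.67 in Py117 tumours, with tumour 3 highest for 14, and 8.38, 8.57, 8.88, 8.60 and 8.63 in mixed tumours, with tumour 3 highest for 13. In Py8119 tumours it was 8.35 to 8.57. Pgk1, a glycolytic kinase, was 10.33, 11.20, 11.52, 10.63 and 10.59 in Py117 tumours and 11.46 to 11.62 in mixed tumours (difference in deviation 0.395, SE 0.0741, limma adjusted p = 0.0168). That call was lost without Py117 tumour 2 (0.109) or 3 (0.23) or mixed tumour 2 (0.0524) or 5 (0.0563).

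Cell cycle genes varied little in level but in step across the list. The mean of 28 genes was 8.70, 8.74, 8.35, 8.93 and 8.56 in Py117 tumours (SD 0.218), 9.04, 9.08, 8.91, 9.06 and 9.11 in mixed tumours (SD 0.0774, and 0.0272 without tumour 3) and 9.01 to 9.21 in Py8119 tumours (SD 0.0835, and 0.0521 without tumour 4). Among Py117 tumours, tumour 4 was highest for 25 of 28 genes and tumour 3 lowest for 25, and tumour 3 was lowest for 21 among mixed tumours. Over all 11183 genes, tumour 4 was highest for 33.4% and tumour 3 lowest for 49.0% in Py117 tumours. Mki67, the proliferation antigen Ki-67, was 10.67, 10.59, 9.91, 10.73 and 10.73 in Py117 tumours and 10.25 to 10.44 in mixed tumours. Against Py8119 tumours 1 of the 28 was called, beside 1.44% of all genes, and against mixed tumours 0, beside 0.993%. The called gene was E2f1, a transcription factor of S phase entry (SD 0.202 against 0.0366, limma adjusted p = 0.0472). It lost the call without Py117 tumour 3 (0.27) or 5 (0.132), without any single Py8119 tumour (0.0612 to 0.113) and without mixed tumour 1, 2, 4 or 5 (0.0501 to 0.0761). It was also lost at a mean of at least 5 or 7, with no minimum, after quantile normalization or centring, with a trend and robust prior and with a replicate block (0.0509 to 0.0762), and with group medians (0.799). The 17 DNA repair genes were 7.41, 7.26, 6.92, 7.68 and 7.34 in Py117 tumours, highest in tumour 4 for 16 and lowest in tumour 3 for 14.

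Skeletal muscle genes varied little in any group. The mean of 30 genes was 5.16, 5.33, 5.39, 5.15 and 5.18 in Py117 tumours (SD 0.108), 5.20 to 5.35 in mixed tumours (SD 0.0540, and 0.0298 without tumour 3) and 5.28 to 5.37 in Py8119 tumours (SD 0.0368, and 0.0224 without tumour 5). These levels were near background: 1394 olfactory and vomeronasal receptor genes, which mammary tissue is not known to use, had a median level of 3.22, and 95% of them were at or below 5.34. Tumour 3 was highest for 13 and tumour 2 for 8 of the 30 genes among Py117 tumours. No member had an SD of at least 0.5 in any group. Only 7 of 30 had a mean of at least 6 and were tested. None of these 7 was called, beside 0.993% and 1.44% of all genes in the Py117 comparisons. Ckm, the creatine kinase of muscle, was 5.49, 6.01, 6.13, 5.34 and 5.4 in Py117 tumours. Acta1, skeletal actin, was 6.39, 6.72, 6.71, 6.34 and 6.24, within the range of the mixed tumours (6.45 to 6.93) or just below it. Smooth muscle and pericyte genes averaged 7.06 to 7.40, 6.58 to 6.78 and 6.61 to 6.95 in Py117, mixed and Py8119 tumours.

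**Figure D5:**
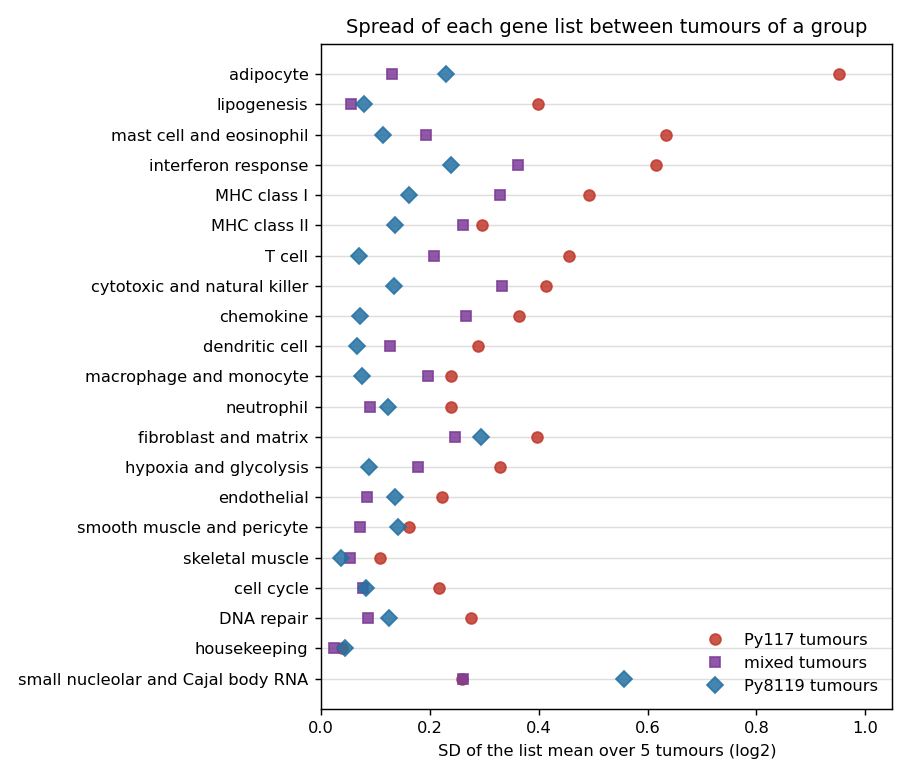
SD of the list mean (log2) over the 5 tumours of each group for 21 gene lists; circles are Py117, squares mixed and diamonds Py8119 tumours. The adipocyte list in Py117 tumours is farthest right (0.951), while small nucleolar and Cajal body RNA has its largest SD in Py8119 tumours (0.556). Housekeeping genes are close together in each group (0.0390, 0.0240 and 0.0447).

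The mixed tumours could differ in their content of the 2 lines, so genes of each line were followed in them. The 313 genes higher in Py117 culture averaged 6.64, 7.0, 6.96, 6.92 and 6.88 in mixed tumours 1 to 5 (SD 0.139), and tumour 1 was lowest for 206 of them. The 119 genes higher in Py8119 culture averaged 8.20, 8.19, 8.24, 8.24 and 8.29 (SD 0.0395). The same lists had SD of 0.0989 and 0.0907 in Py117 tumours and 0.0314 and 0.0372 in Py8119 tumours. Of the line genes tested, 8 of 251 and 7 of 110 were called wider in Py117 than in mixed tumours, beside 0.993% of all genes, and 9 and 10 wider than in Py8119 tumours, beside 1.44%. At least Acan and Kcnk5 among them were not tested when each group had to reach a mean of 6. The 23 epithelial genes were 8.51, 8.25, 8.12, 8.29 and 8.59 in Py117 tumours, where the tight junction gene Cldn3 was called (10.28, 8.81, 8.52, 9.07 and 10.06, limma adjusted p = 0.0138 against mixed tumours). The call of Cldn3 was lost without Py117 tumour 1 (0.146) or 5 (0.105) or mixed tumour 2 (0.0524).

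The 7 genes wider in Py8119 than in Py117 tumours were Egr3, Klf2, Mrpl11, Mrpl13, Psmg4, Snora69 and Thoc7. They were split between Py8119 tumours 1 and 2 against the rest, or 4 and 5 against the rest, a form of split that the test favours. Mrpl13, a protein of the mitochondrial ribosome, was 8.26, 8.63, 9.19, 9.14 and 9.11 in Py8119 tumours and 7.87 to 8.01 in Py117 tumours. Its deviation was smaller in Py117 tumours by 0.329 (SE 0.0685, limma adjusted p = 0.0259). Klf2 and Egr3, transcription factors that cells induce quickly, were low in Py8119 tumours 4 and 5: Klf2 was 7.59, 7.55, 7.47, 6.93 and 7.0 and Egr3 was 6.45, 6.72, 6.59, 5.62 and 5.74 (limma adjusted p = 0.017 and 0.0283). The 19 immediate early genes averaged 8.14, 8.04, 8.01, 7.64 and 7.77 there. Klf2 and Egr3 lost the call without Py8119 tumour 4 or 5 (0.17 to 0.241), Egr3 also without Py117 tumour 2 (0.0675). Mrpl13 lost it without Py8119 tumour 1 (0.195) or 2 (0.109) or Py117 tumour 2 (0.0571).

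Small nucleolar RNA was lowest in Py8119 tumour 1. The mean of 72 small nucleolar and Cajal body RNA genes, which guide chemical changes of ribosomal and spliceosomal RNA, was 8.64, 9.53, 10.08, 9.29 and 9.86 in Py8119 tumours (SD 0.556). Tumour 1 was lowest for 55 of 72 and tumour 3 highest for 60. In Py117 tumours it was 8.77 to 9.47 and in mixed tumours 9.31 to 9.98. The SD was larger in Py8119 than in Py117 tumours for 57 of 72. This list was assembled after the data were seen. Without these genes the counts of called genes were 113 against mixed and 175 against Py8119 tumours.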

How the data were processed

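RNA from 15 tumours and 6 cultures was measured on whole-transcript mouse arrays (total RNA, WT PLUS labelling, per the labels). The authors deposited log2 values. The submitters' processing notes name RMA, which background-corrects, quantile-normalizes and summarises probes, and limma. Versions are not given in the sources used here, nor are hybridization dates, so batches could not be examined, and the number of arrays limits the precision.

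Of 41345 probe sets, 23521 had 1 gene symbol in the platform annotation, 1814 several and 16010 none. The first were used, giving 22180 genes. Where a gene had several (1082 genes), the brightest on average over all 21 arrays stood for it. Genes with a mean of at least 6 over the tumour arrays entered a test of spread, made with limma 3.58.1 under R 4.3.3 (lmFit and eBayes, default prior) on absolute deviations from the group mean, multiplied by the square root of n over n minus 1. Array distances were tested with scipy 1.17.1. On simulated data the test missed most genes of wider spread and called genes of equal spread more often than its nominal rate, and the form with group medians made no call at all.

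Members, lists and tests were chosen with earlier results of these data known. Lists (39, with 640 of 707 entries measured) carry no p-value. Named genes were the 10 with the largest SD per group, the 5 called with the largest difference on each side of a pair, the 3 highest members of each fat, immune, muscle and cell cycle list, and a fixed list. Cxcl10, Rsad2, Igtp, Ogn, Mmp2, Gpd1, Pgk1, E2f1, Cldn3, Itgae, Cxcl14 and genes given only as called list members fall outside this rule and were picked after their values were seen, as was the small nucleolar RNA list. Line genes were those called by limma in culture with a log2 difference of at least 2.

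The alternatives were deviations from group medians, log2 squared deviations, other signal minima, quantile normalization, array median centring, the mean of probe sets, an intensity trend with a robust prior, a replicate block and leaving out each tumour. Leaving out both tumours numbered 3, and leaving out small nucleolar RNA, were added after the data were seen.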

Additional observations from a re-analysis of the deposited data

Results flagged for a closer look

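In groups of 5 tumours, a value was listed here when the gap between the highest or lowest tumour and its neighbour exceeded Dixon's 95% critical value relative to the range of the group. Chance alone lists about 1 in 20 such groups, and 15 of 202 groups examined (7.43%) were listed. No cause was tested for any of them.

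Among gene lists, T cell genes were lowest in Py8119 tumour 2 (5.54) and cytotoxic and natural killer genes highest in mixed tumour 3 (7.42). DNA repair genes were highest in Py8119 tumour 4 (8.09) and neutrophil genes highest in Py117 tumour 5 (5.53). Genes of the Py117 line were lowest in Py117 tumour 3 (8.12) and highest in Py8119 tumour 4 (6.23). Genes of the Py8119 line were lowest in Py117 tumour 1 (6.55).

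Among single genes, Fabp4 was highest in mixed tumour 1 (9.09) and Serpina3n in Py8119 tumour 4 (9.21). The chemokine gene Ccl24 (8.97) and Pdcd1lg2 (8.11), which encodes the checkpoint ligand PD-L2, were highest in Py117 tumour 5. The collagenase Mmp13 (9.29) and Ifit1 (8.92) were highest in mixed tumour 3. Mki67 was lowest in Py117 tumour 3 (9.91), and Thoc7, part of an mRNA export complex, was lowest in Py117 tumour 5 (8.74).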

How the results depend on the processing

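Counts of genes with a different spread are given for Py117 against mixed and Py117 against Py8119 tumours in turn. They were 0 and 0 with group medians, 261 and 398 with log2 squared deviations, 52 and 69 at a mean of at least 7, and 239 and 413 with an intensity trend and robust prior. Other minima, quantile normalization, centring, the mean of probe sets and leaving out small nucleolar RNA or both tumours numbered 3 kept the counts within 1.5 times, at 89 to 159 and 137 to 203. Leaving out single tumours gave 41 to 337, 47 to 492 and, for mixed against Py8119 tumours, 0 to 2. No called result changed direction, while the distance between mixed and Py8119 tumours, which was not called, changed sign in some settings. Of 53 calls of named or listed genes, 0 remained with group medians and 36 with the trend and robust prior. There remained 12 without Py117 tumour 2, 14 without Py117 tumour 3 and 15 without both tumours numbered 3. A count within 1.5 times therefore does not mean that the same genes were called. The cause was not tested. Distances between Py117 and the other groups differed by 0.0512 and 0.0485 after quantile normalization (adjusted exact p = 0.0476), by 0.0368 and 0.0321 without both tumours numbered 3 (0.0476), by 0.0304 to 0.0784 and 0.0321 to 0.0801 without single tumours, and between mixed and Py8119 tumours by -0.0106 to 0.0155. Without single tumours, the SD of a list mean ranged in mixed tumours from 0.0657 to 0.150 (adipocyte), 0.171 to 0.418 (interferon), 0.0818 to 0.240 (T cell), 0.0636 to 0.226 (macrophage), 0.0272 to 0.0893 (cell cycle) and 0.0298 to 0.0621 (skeletal muscle). In Py8119 tumours it ranged from 0.100 to 0.264 (adipocyte), 0.0151 to 0.0796 (T cell), 0.0521 to 0.0930 (cell cycle), 0.165 to 0.333 (fibroblast) and 0.0224 to 0.0413 (skeletal muscle), and in Py117 tumours from 0.256 to 0.71 (interferon). The share of Py8119 tumour 1 was 29.6 to 37.7%. The SD of Py8119 line genes in mixed tumours was 0.0603 with a culture difference of at least 3.

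The replicate numbers were not taken as a pairing, since no label says what they share and not every same-numbered pair correlated above 0.1. Same-numbered deviations correlated across genes with r of 0.31, 0.15, 0.35, 0.22 and -0.09 (Py117 and mixed), -0.11 to 0.14 (Py117 and Py8119) and -0.47 to -0.06 (mixed and Py8119). The tumour correlated best with its own number in 3, 1 and 0 of 5, and other numbers of Py117 and mixed tumours reached 0.22. With a replicate block the counts were 114, 150 and 1. Of the 53 calls 46 remained, and those not called were Cd36 in both comparisons (0.0630 and 0.0622), Phlda3 against mixed tumours (0.0678), and E2f1 (0.0623), Fabp4 (0.0623), Ltb (0.0550) and Pi16 (0.0545) against Py8119 tumours.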

Other observations

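Other gene groups had different tumours at their ends. The 21 chemokine genes averaged 7.05, 7.25, 7.73, 6.96 and 7.71 in Py117 tumours and 7.66, 7.89, 8.26, 7.69 and 7.60 in mixed tumours. The 13 dendritic cell genes were highest in Py117 tumour 5 (7.96, against 7.22 to 7.60). Their member Itgae, the integrin of resident T cells and dendritic cells, was 6.85, 6.20, 6.08, 7.60 and 7.33 in Py117 tumours and 6.16 to 6.44 in mixed tumours (limma adjusted p = 0.0341), a call lost without Py117 tumour 2 or 3 (0.0841 and 0.0668), any single mixed tumour (0.0553 to 0.0991) or Py8119 tumour 1, 2 or 5 (0.0504 to 0.0558). MHC class II genes averaged 8.01, 7.82, 8.34, 8.47 and 8.49 in Py117 tumours. Endothelial genes were 7.99, 7.81, 7.40, 7.75 and 7.86, lowest in tumour 3 for 14 of 22. Cxcl14, a chemokine of epithelium and stroma, was 9.02, 7.73, 7.71, 8.85 and 8.94, low like the fat genes in tumours 2 and 3 (limma adjusted p = 0.0247 against mixed and 0.00468 against Py8119 tumours). Its calls were lost without Py117 tumour 2 or 3 (0.0903 to 0.372), and against mixed tumours without mixed tumour 1, 4 or 5 (0.0674 to 0.084). The potassium channel gene Kcnk5 was low in the same tumours (7.80, 5.60, 5.57, 7.07 and 8.52), and the cartilage proteoglycan gene Acan was highest there (7.63, 9.88, 9.70, 7.80 and 6.61). Wfdc18 was 4.55 in Py8119 tumour 1 and 5.31 to 6.57 in the others. Ribosomal protein genes were highest in Py117 tumour 1 (10.26) and lowest in tumour 4 (9.87).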
